A study of Mus musculus with 6 samples.

Results

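Blood vessel genes were read in mouse melanoma through 10 genes of an immune panel: the angiopoietin ligands Angpt1 and Angpt2, their receptor Tek and its relative Tie1, the growth factors Vegfa and Vegfc with the receptor Kdr, and the adhesion genes Cdh5, Mcam and Jam3. They were taken by name from the panel's 770 genes, and each has 1 probe. The tumours of both groups grew in mice that carry BrafV600E, an activated Braf allele, after 4-hydroxy-tamoxifen, applied to shaved back skin when the mice were 10 weeks old. The 3 samples labelled 4′-BR came from mice given 4′-bromo-resveratrol, a bromine-bearing relative of resveratrol, by intraperitoneal injection at 30 mg/kg on 3 days a week for 5 weeks, and the 3 Control samples came from control mice of the same model. The driver of the Cre recombinase, the sex of the mice and the vehicle or handling of control mice are not stated in the labels. They give n = 6 for the mice but do not tie each sample to a mouse. P-values therefore measure only how these 6 samples vary, which may in part be technical.

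Tek, also called Tie2, is an endothelial receptor tyrosine kinase. Angpt1 activates it and steadies vessels, while Angpt2, which endothelial cells store and release, often opposes Angpt1 and loosens them; Tie1 binds no angiopoietin on its own and modulates Tek. Vegfa, made by tumour, epidermal and immune cells, drives vessel growth through Kdr, and Vegfc mainly drives lymphatic growth. Cdh5 (VE-cadherin) seals endothelial junctions, Jam3 is a junctional adhesion molecule of endothelium and other cells, and Mcam (CD146) marks endothelium and mural cells and is also abundant in melanoma cells.

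The tumours given 4′-BR had less Jam3 RNA than control tumours in these 6 samples, at 2.18-fold lower. It was the 1 gene that passed of the 9 tested, where 5.66% of all genes passed as lower. Angpt1 was counted too weakly to be tested. The Jam3 call held in 1 of 6 fits with a sample left out, and limma did not make it. Angpt2 was lower by about as much but varied more among controls and did not pass. Tie1 and Mcam lay below every control sample in all 3 treated samples without passing, and Vegfc lay above. Tek, Kdr and Vegfa differed less, by 0.07 to 0.25 on the log2 scale in either direction. The test was edgeR's quasi-likelihood test on raw counts, with samples scaled by 20 housekeeping probes and p-values adjusted over the 548 genes whose raw counts averaged 20 or more.

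The promoters of Tie1, Vegfc and Mcam are shown because these are the genes whose groups did not overlap and for which RefSeq (GRCm38.p6) lists a start that is the outermost one of the gene. Each runs for 250 bases up to the transcription start, 5′ to 3′ on the gene's strand. Capitals mark GGAA or its complement TTCC, the core that ETS transcription factors bind; ETS factors are known regulators of endothelial genes.
Tie1, chr4:118489850-118490099, minus strand: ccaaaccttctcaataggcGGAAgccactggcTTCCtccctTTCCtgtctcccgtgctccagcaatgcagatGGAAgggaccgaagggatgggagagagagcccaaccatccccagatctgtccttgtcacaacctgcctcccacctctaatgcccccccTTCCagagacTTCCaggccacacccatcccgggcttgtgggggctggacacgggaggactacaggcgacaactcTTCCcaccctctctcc
Vegfc, chr8:54077282-54077531, plus strand: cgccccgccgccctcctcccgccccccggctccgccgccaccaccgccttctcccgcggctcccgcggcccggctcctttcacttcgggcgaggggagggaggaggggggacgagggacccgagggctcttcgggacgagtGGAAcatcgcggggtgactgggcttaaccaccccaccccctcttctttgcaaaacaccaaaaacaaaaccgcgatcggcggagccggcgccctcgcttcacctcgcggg
Mcam, chr9:44134408-44134657, plus strand: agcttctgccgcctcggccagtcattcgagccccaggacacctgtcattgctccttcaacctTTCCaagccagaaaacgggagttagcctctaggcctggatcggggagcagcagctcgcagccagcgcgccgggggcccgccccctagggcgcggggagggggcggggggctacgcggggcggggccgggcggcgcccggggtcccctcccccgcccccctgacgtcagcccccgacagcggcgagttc

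The 3 windows differ in make-up. Tie1 holds 7 GGAA cores counted on both strands, and Vegfc and Mcam hold 1 each. At least 1 core stands in 93.4% of the 32851 mouse promoter windows of this length in the same table, with a median of 3, and 3.82% hold 7 or more. The GC box GGGCGG, a site of Sp1-type factors, was found at 0 places in Tie1, 2 in Vegfc and 5 in Mcam, on both strands; 32.7% of all windows hold it and 1.93% hold 5 or more. The hypoxia response core ACGTG was in none of the 3, nor in the window of Vegfa, and is in 16.6% of all windows. These letters are a description of the windows and say nothing of which factors act there.

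Samples differed in depth along with treatment. Total counts over the 770 genes were 118221 to 254862 in 4′-BR samples and 322485 to 472402 in Control samples, and the housekeeping geometric mean was 221 to 435 and 504 to 698 in the same order. The third 4′-BR sample was the shallowest, and its positive control probes, a fixed amount of synthetic RNA, also read lowest (a geometric mean of 384, against 614 to 757 in the other 5). Over all 548 genes 38 passed, 7 higher and 31 lower in 4′-BR tumours, and the median log2 fold change was −0.04. That split depended on scaling. TMM factors gave 16 higher and 38 lower, median-of-ratios factors 17 and 37, total counts 30 and 30, and positive control probes 1 and 243. The median of all genes shifted to −0.67 under positive control scaling and to 0.12 under total count scaling. Leaving out the third control sample gave 36 calls, the second control 7, the first control or the third 4′-BR sample 1, and the first or second 4′-BR sample 0 in edgeR (107 and 117 genes at an unadjusted p under 0.05). Of the 36 calls without the third control sample, 28 were among the 38. Depth and treatment cannot be told apart.

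In the housekeeping-scaled counts that follow, the negative control probes, which match no mouse RNA, averaged 3.46 to 7.50 in 4′-BR samples and 4.11 to 4.95 in Control samples. Probes differ in efficiency, so each gene is compared with itself across samples and not with other genes. In bulk tumour RNA, fewer cells of a type and less RNA per cell cannot be told apart.

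**Figure D1:**
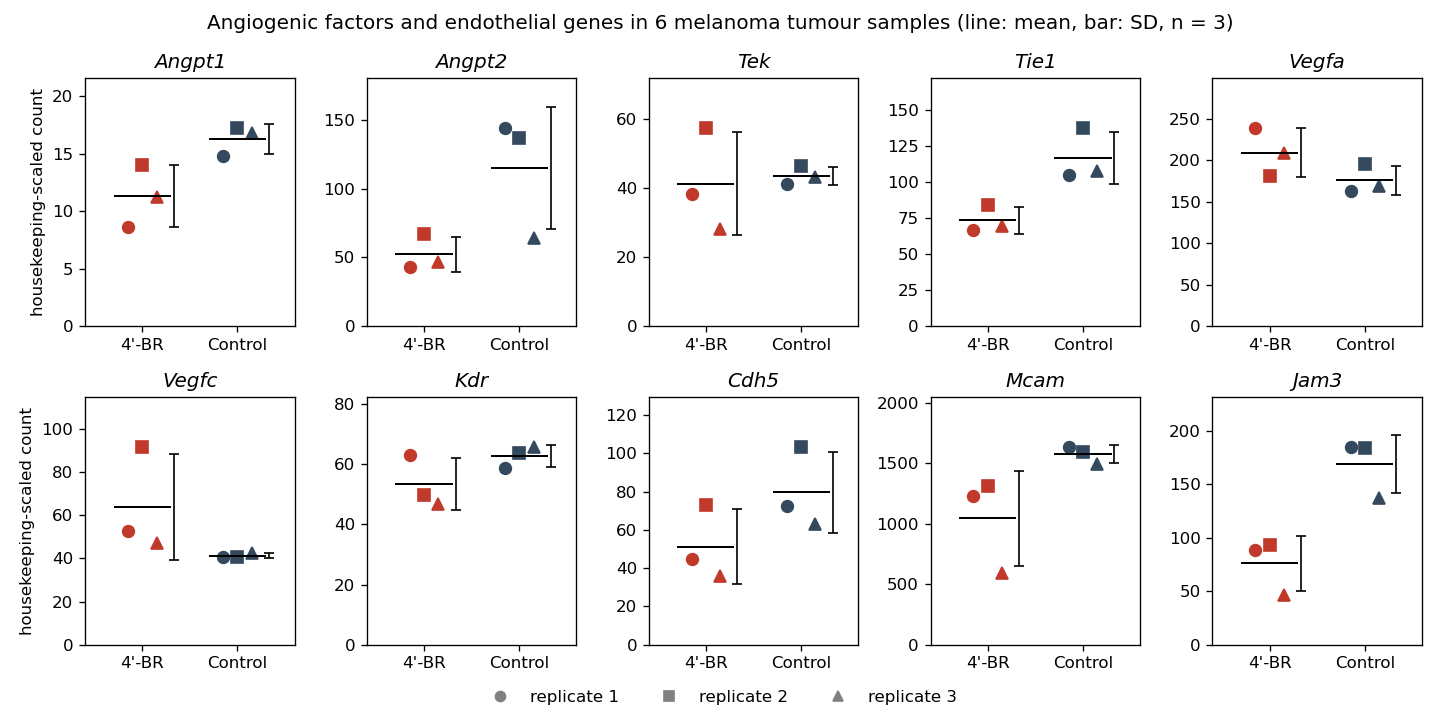
Housekeeping-scaled counts (y axis, linear from 0) of the 10 genes in each of the 3 4′-BR samples (red, left) and 3 Control samples (dark, right); symbols give the replicate number, lines the mean and bars the SD. All 3 treated samples lie below all controls for Jam3, Tie1, Mcam and the weakly counted Angpt1, and above them for Vegfc.

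The angiopoietin ligands were both lower in the means of the treated tumours. Angpt2 stood at 43.0, 66.9 and 46.9 scaled counts in the 4′-BR samples, against 144.3, 136.8 and 64.4 in the Control samples. The third control sample was the exception, since it fell within the treated range and so the groups overlapped. The means were 52.3 ± 12.8 and 115 ± 44.1 (SD, n = 3 each), a log2 fold change of −1.15 (SE 0.34, edgeR adjusted p = 0.0708). Without the third control sample, the one that overlapped, the log2 fold change was −1.43 and passed (edgeR adjusted p = 0.0166). That was the 1 call in 6 fits with a sample left out, where the edgeR adjusted p reached 0.224. DESeq2 called Angpt2 on all 6 samples (adjusted p = 0.0189), and limma on log2 scaled counts did not (adjusted p = 0.103). Angpt1 gave 6 to 9 raw counts in 4′-BR samples and 18 to 29 in Control samples, under the minimum for the test. Scaled, it was at 8.60, 14.0 and 11.3 in treated tumours, against 14.8, 17.2 and 16.8 in controls. The groups did not overlap, but counting error alone was 33.3% to 40.8% of each treated value, and the lowest raw count was 1.5 times the mean of that sample's negative probes. Fitted with no count minimum, Angpt1 was at −0.57 (SE 0.35, edgeR adjusted p = 0.398).

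The receptors of the angiopoietins were read at different sizes of change. Tie1 was at 66.9, 84.0 and 69.4 in 4′-BR samples and at 104.7, 137.4 and 107.5 in Control samples. All 3 treated samples were below all 3 controls. The SD was 12.6% of the mean in treated and 15.5% in control tumours, where counting error was 14.1% and 7.96%. Tie1 was 1.59-fold lower (log2 fold change −0.67, SE 0.21, edgeR adjusted p = 0.0799). It passed in 2 of 11 other settings, TMM scaling (edgeR adjusted p = 0.0448) and positive control scaling. With a sample left out it passed in 0 of 6 fits (edgeR adjusted p 0.0842 to 0.270). Tek gave 38.2, 57.5 and 28.1 in 4′-BR samples, against 41.2, 46.4 and 43.2 in Control samples. Its treated samples lay on both sides of the controls, and the spread among them was 36.2% of the mean against 5.98% in controls. Counting error was 19.9% in treated and 12.9% in control samples, more than the spread among controls. The log2 fold change of Tek was −0.07 (SE 0.30, edgeR adjusted p = 0.884); it was 0.06 with total count scaling and 0.12 without the third 4′-BR sample.

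The growth factor genes were the 2 with positive fold changes. Vegfc stood at 52.6, 91.7 and 46.9 in 4′-BR samples and at 40.4, 40.4 and 42.4 in Control samples. The controls were nearly equal, every treated sample was above them, and the second treated sample was well above the other two. The SD of the controls, 2.82% of their mean, was smaller than their counting error of 13.2%. The lowest treated value came from 25 raw counts, a counting error of 20%. The log2 fold change was 0.63 (SE 0.29, edgeR adjusted p = 0.239), and 0.28 without the second 4′-BR sample. Vegfa was at 238.9, 180.4 and 208.2 in 4′-BR tumours and at 163.3, 195.7 and 169.0 in Control tumours. The second control sample lay above the second treated one, so the groups overlapped (log2 fold change 0.25, SE 0.18, edgeR adjusted p = 0.414). With positive control scaling Vegfc was at −0.05 and Vegfa at −0.36, where the median of all genes was −0.67. The receptor Kdr was at 63.1, 49.8 and 46.9 in treated and at 58.5, 63.6 and 65.8 in control tumours. The first treated sample fell among the controls and the other two below them (log2 fold change −0.22, SE 0.23, edgeR adjusted p = 0.575).

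Of the adhesion genes, Jam3 fell. It read 88.9, 93.3 and 46.9 scaled counts in the 4′-BR samples, from 93, 60 and 25 raw counts, against 185.5, 183.8 and 137.5 in the Control samples, from 225, 309 and 188. The highest treated sample was below the lowest control. The means were 76.4 ± 25.6 and 169 ± 27.2 (SD, n = 3 each), a log2 fold change of −1.12 (SE 0.26, edgeR adjusted p = 0.0387). It ranked 26 of 548 from the most negative fold change. Leaving out 1 sample ended the call in 5 of 6 cases, with values of −0.89 (without the third 4′-BR sample) to −1.27 and adjusted p of 0.0338 (without the third control) to 0.133 (without the first 4′-BR sample). Limma on log2 scaled counts did not call it either (adjusted p = 0.0663).

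Cdh5 and Mcam were lower in the mean and did not pass. Cdh5 was at 44.9, 73.1 and 35.6 in 4′-BR samples and at 72.6, 103.5 and 62.9 in Control samples, and the second treated sample was above 2 of the controls (log2 fold change −0.64, SE 0.32, edgeR adjusted p = 0.258). Mcam was at 1233, 1311 and 591 in treated tumours and at 1639, 1597 and 1491 in control tumours. Controls lay within 1.10-fold of each other, and the third treated sample stood far under the other two. Counting error was 5.63% of that low value, on 315 raw counts. The log2 fold change of Mcam was −0.59 (SE 0.26, edgeR adjusted p = 0.212), and −0.31 without the third 4′-BR sample.

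**Figure D2:**
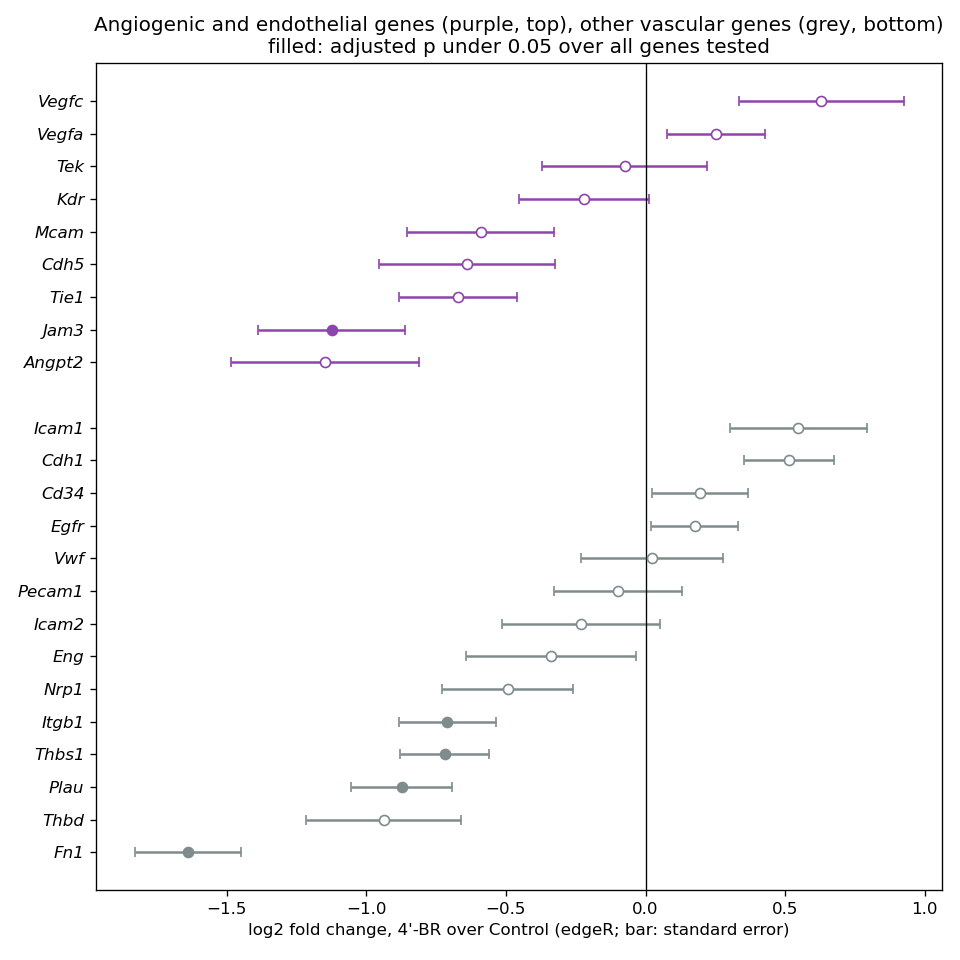
Log2 fold change, 4′-BR over Control, with its standard error (x axis) for the 9 tested genes (purple) and for some other vascular genes (grey). The grey genes are the called and the 2 lowest-p genes of each vascular list, with Pecam1, Vwf, Eng, Cd34 and Icam2. The rest of the 42 tested are not drawn. Filled points passed at an adjusted p under 0.05. Among the 9, Jam3 at −1.12 is filled and Angpt2 at −1.15 is not, and Vegfa and Vegfc lie to the right of 0.

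Read together, 7 of the 9 tested genes had a negative fold change, against 52.7% of all 548 genes, and their median was −0.59, against −0.04 over all genes. One of the 9 passed, lower in 4′-BR tumours, where 5.66% of all genes passed in that direction, 1.28% passed as higher and 6.93% in either; 1 of 9 is too few to set against that share. At an unadjusted p under 0.05 there were 3 (Jam3, Angpt2 and Tie1), all lower, against 15.7% of all genes lower at that level. Groups that do not overlap, with 4′-BR lower, were seen for 3 of the 9 (Jam3, Tie1 and Mcam) and for 17.9% of all genes. Neighbours in the order of fold changes, from Angpt2 through Jam3, Tie1, Cdh5, Mcam, Kdr, Tek and Vegfa to Vegfc, differed by 0.03 to 0.45, and the largest step, between Jam3 and Tie1, was 0.45 with a combined SE of 0.34. Under other settings, 2 of the 9 were called lower with TMM (6.93% of all genes), 2 with DESeq2 (8.76%), 5 with positive control scaling (44.3%) and 1 each with median-of-ratios (6.75%) and total count scaling (5.47%). Limma on log2 scaled counts called 0 of the 9 and 1.28% of all genes as lower, with 3 of the 9 at an unadjusted p under 0.05. Over all genes, 124 of 548 were at that level in limma, in either direction. Without the third 4′-BR sample the median of the 9 was −0.31. Of these, 0 were called by edgeR and 4 had an unadjusted p under 0.05, in either direction. Over the 558 genes tested in that fit, 1 was called and 114 had an unadjusted p under 0.05.

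Ratios of 2 genes within a sample do not depend on how samples are scaled, and 11 were compared, each by a two-sided exact permutation test whose smallest possible p with 3 against 3 samples is 0.1. None could therefore pass, and the Benjamini-Hochberg adjusted p over the 11 was 0.367 or more. Groups did not overlap for 3 of them. Of all 548 genes taken singly, 30.5% did not overlap in either direction. The share over all pairs of genes was not computed, so the 3 are described and not read as a result. Vegfa over Kdr, ligand over receptor, was at 1.92, 1.86 and 2.15 on the log2 scale in 4′-BR samples, against 1.48, 1.62 and 1.36 in Control samples, a difference of 0.49 (exact p = 0.1). Vegfc over Kdr was at −0.26, 0.88 and 0.00, against −0.54, −0.65 and −0.63, a difference of 0.81 (exact p = 0.1). Both ligand-to-receptor ratios were higher in all 3 treated samples, but both use the same Kdr counts and so are not independent.

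Tek over Cdh5 was at −0.23, −0.35 and −0.34 in 4′-BR samples and at −0.82, −1.16 and −0.54 in Control samples, a difference of 0.53 (exact p = 0.1). Tie1 over Cdh5 had a mean of 0.58 ± 0.38 in 4′-BR and 0.57 ± 0.19 in Control samples (SD, n = 3 each, exact permutation p = 1). Mcam over Cdh5 likewise had means of 4.33 ± 0.39 and 4.34 ± 0.34 (exact permutation p = 1). In these samples the groups did not overlap for Tek over Cdh5, and they overlapped widely for Tie1 and Mcam over Cdh5. In the third 4′-BR sample the Tek ratio rests on 15 Tek and 19 Cdh5 raw counts. Their counting errors were 25.8% and 22.9%, and the separation of the groups was not tested against them. The ratio of Angpt2 to Angpt1 was 2.21 ± 0.14 in treated and 2.73 ± 0.71 in control tumours (exact permutation p = 0.4). This difference, −0.52, was −0.08 after the negative probe mean was subtracted from the counts. That of Angpt2 to Tek was 0.37 ± 0.31 and 1.31 ± 0.65 (exact permutation p = 0.2). The third control sample, low in Angpt2, overlapped the treated samples in both. Jam3 over Cdh5 was 0.58 ± 0.35 in treated and 1.10 ± 0.26 in control tumours (exact permutation p = 0.2).

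**Figure D3:**
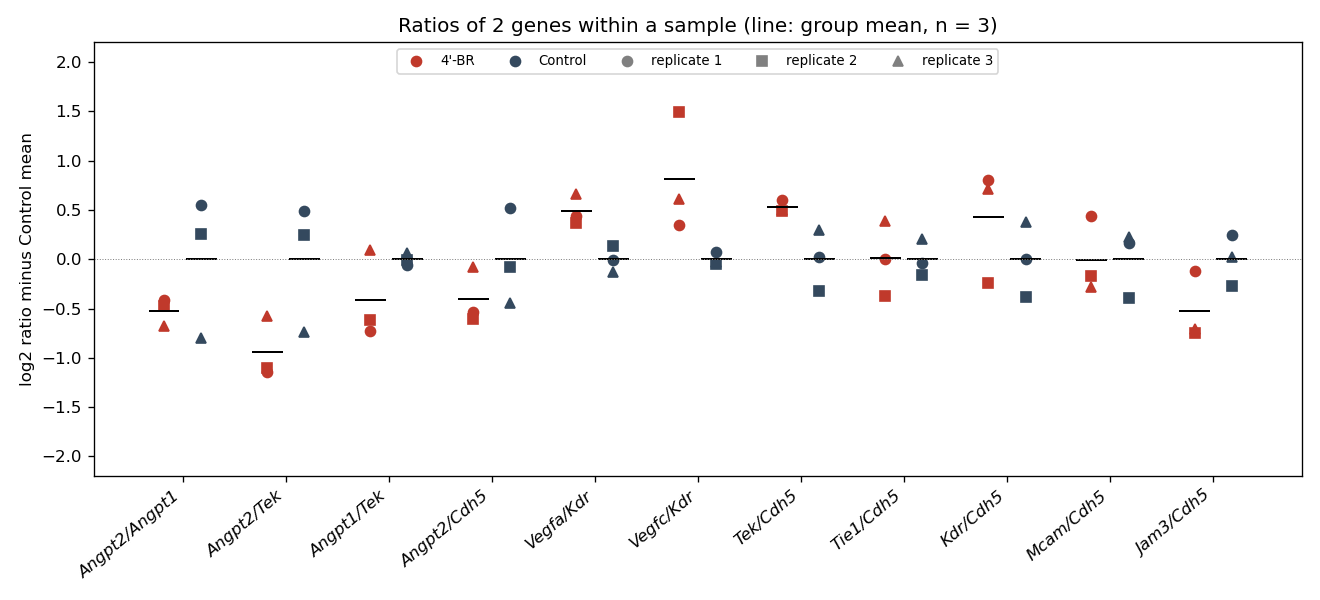
Log2 ratio of 2 genes within a sample, minus the Control mean (y axis), for 11 pairs; 4′-BR samples (red, left of each pair) and Control samples (dark, right), with symbols for the replicate and lines for group means. Vegfa/Kdr, Vegfc/Kdr and Tek/Cdh5 have all 3 treated samples above all 3 controls.

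The markers of endothelial cells were read beside them. Of 11 endothelial markers listed, Tek, Tie1, Kdr and Cdh5 among them, 9 were measured and 0 passed in edgeR, DESeq2 or limma. These tools called 38, 69 and 9 of all 548 genes. Of the 9 markers 1, Tie1, had an unadjusted p under 0.05 in edgeR, where 128 of all genes did. The fold change was negative for 7 of the 9, against 52.7% of all genes, with a median of −0.22. Pecam1 (CD31), the general endothelial marker, was at 79.6 ± 13.5 in 4′-BR and 85.1 ± 14.6 in Control tumours (SD, n = 3 each, log2 fold change −0.10, SE 0.23). Vwf, the clotting protein stored in endothelial granules, was at 41.2 ± 3.80 and 40.7 ± 5.95 (0.02, SE 0.25). Cd34 was at 0.20, Icam2 at −0.23 and the TGF-β co-receptor Eng at −0.34 (SE 0.30), none past the threshold. All 9 stood above background, and their summed level was 930 to 1583 scaled counts in 4′-BR and 1380 to 1552 in Control samples. Most of that sum was Eng (253 to 728 in 4′-BR and 603 to 661 in Control samples) and Cd34 (362 to 459 and 325 to 416). RNA of these markers was therefore counted in every sample. Whether the sum follows endothelial cells alone was not tested.

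Across 4 further lists of vascular genes, 42 genes were tested and 4 fell in 4′-BR tumours, while 0 rose in edgeR, where 5.66% of all genes passed as lower and 1.28% as higher. DESeq2 called 6 lower and 2 higher (8.76% and 3.83% of all genes), and limma 1 lower (1.28%) and 0 higher. In edgeR, 3 of the 42 had a positive fold change with an unadjusted p under 0.05, against 7.66% of all genes. The lists were not tested against all genes. None of the 4 genes of the growth factor axis passed; Nrp1, a co-receptor for VEGF, was at −0.49 (edgeR adjusted p = 0.244) and Egfr at 0.18. None of 9 endothelial surface genes passed in edgeR, and DESeq2 called 1, Thbd. Thbd, thrombomodulin, the anticoagulant receptor of endothelium, was at 89.9 ± 21.0 in 4′-BR and 173 ± 58.3 in Control tumours (log2 fold change −0.94, edgeR adjusted p = 0.0712), and Icam1 at 0.55 (adjusted p = 0.213). Of 7 junction and transmigration genes, Itgb1, the integrin β1 chain, fell (log2 fold change −0.71, edgeR adjusted p = 0.0431), and Cdh1, epithelial cadherin, was at 0.51 (adjusted p = 0.0799). Of 22 regulators and matrix genes, Fn1 (fibronectin, −1.64), Plau (urokinase, −0.87) and Thbs1 (thrombospondin, an inhibitor of vessel growth, −0.72) fell. The median over the 42 was −0.11, against −0.59 for the 9 genes above and −0.04 over all genes.

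Markers of other cell types also differed between the groups; 5.66% of all 548 genes passed as lower and 1.28% as higher in edgeR. Of 6 fibroblast markers listed 4 were measured and 3 fell, with a summed level of 9570 to 14565 scaled counts in 4′-BR and 21502 to 29277 in Control samples. Mural markers were measured in 3 of 5, Mcam included (summed level 2013 to 3275 in 4′-BR and 3067 to 3272 in Control samples), and none passed. Most of that sum was Cspg4 and Mcam, with Pdgfrb at 60.0 to 141.5 in 4′-BR and 147.8 to 172.3 in Control samples. Because Mcam is also abundant in melanoma cells, the sum does not measure mural cells alone. Which cells gave the Cspg4 counts was not tested either. Pdgfrb, the receptor of pericytes and fibroblasts, was at −0.70 (SE 0.28, edgeR adjusted p = 0.163) with no overlap, and Cspg4 at 0.15. All 7 macrophage markers were measured and 4 fell (summed level 1291 to 1771 in 4′-BR and 2259 to 2880 in Control samples). Of 7 keratinocyte markers 5 were measured and 3 rose (4626 to 5404 in 4′-BR and 3244 to 3771 in Control samples). The 1 melanocyte marker measured of 6, S100b, spanned 289 to 810 in 4′-BR and 448 to 614 in Control samples. For Lyve1, of lymphatic vessels, the 1 measured of 4 (30.6 to 46.7 in 4′-BR and 28.9 to 56.5 in Control samples), the log2 fold change was −0.27 (SE 0.32), and 2 of 4 platelet markers were measured, both under the count minimum (26.4 to 30.01 summed in 4′-BR and 16.5 to 29.7 in Control samples). No marker was at 0 in any sample. The part of these cell types in the levels of Jam3, Mcam, Vegfa and the other genes was not tested.

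The genes whose pattern over the 6 samples was closest were found by the root mean square difference of log2 scaled counts, each gene centred on its own mean, among 547 others. For Angpt2 these were C1s1 (0.09), Serping1 (0.19) and C1ra (0.19), where the median over all genes was 0.71. C1s1 and C1ra encode proteases of the classical complement pathway and Serping1 their inhibitor, and C1s1 was, like Angpt2, low in the third control sample. For Jam3 they were Itga1 (0.13), Cfb (0.16) and Col3a1 (0.18), an integrin chain, a complement factor and a fibrillar collagen, against a median of 0.71. For Cdh5 they were Il3ra (0.12), Col4a1 (0.12), a basement membrane collagen, and Vcam1 (0.16), against a median of 0.52. For Tie1 they were Tlr8 (0.09), Csf1r (0.11) and Tlr2 (0.12), against a median of 0.43. These distances take in the difference between the groups as well as the spread within them.

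**Figure D4:**
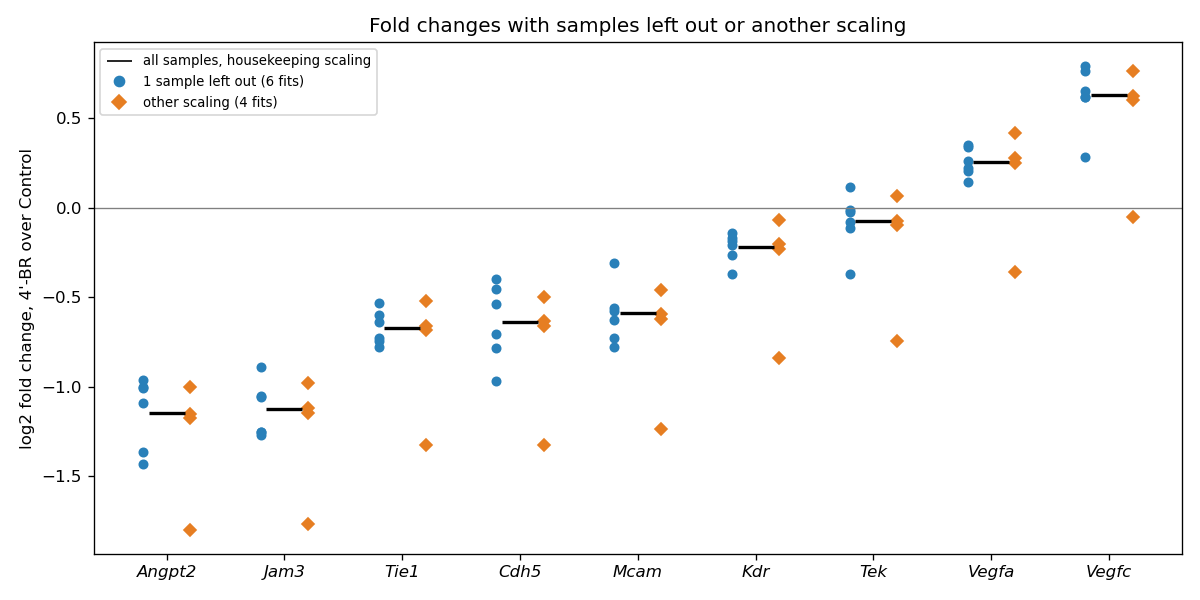
Log2 fold change, 4′-BR over Control (y axis), of the 9 tested genes with all samples and housekeeping scaling (black line), with 1 sample left out (blue circles, 6 fits) and with 4 other scalings (orange diamonds). Angpt2, Jam3, Tie1, Cdh5, Mcam and Kdr stay below 0 in all of these fits, and Tek, Vegfa and Vegfc cross it in at least 1.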

How the data were processed

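Deposited raw counts of nCounter barcodes, per the file headers, give 1 value per probe and sample for 750 endogenous and 20 housekeeping genes, 6 positive and 8 negative control probes; the labels' protocols speak of 730 immune and 40 housekeeping genes. The deposited normalized score equals the raw count times a factor that levels the housekeeping geometric mean, within 1 for 4614 of 4620 values and within 0.1% for the rest. The labels name no counting software. Probe names are those of the file, and all 10 transcript accessions matched RefSeq (GRCm38.p6) under the same symbol. A blank row was dropped.

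Groups came from the sample titles. One further allele that all 6 samples share is not reported here. Raw counts were fitted with edgeR 4.0.16 in R 4.3.3 (glmQLFit, glmQLFTest, two-sided, Benjamini-Hochberg over 548 genes, threshold 0.05, group as the 1 term, common dispersion 0.0457); 222 genes with a mean raw count under 20 were set aside, Angpt1 among them. The fit was tested on simulated data. Scaled counts bring each sample's housekeeping geometric mean to the common geometric mean. Standard errors (SE) derive from the F statistic. Alternatives were 4 scalings, no minimum or one of 50, negative probe subtraction, DESeq2 1.42.0, limma 3.58.1 on log2(value + 1), a replicate block and leaving out each sample. No 2 samples of a group agreed within counting noise (chi-square per degree of freedom 7.30 to 26.2 over 6 pairs), so none was treated as a library deposited again.

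The genes and lists were chosen with earlier results of these data known. Named were the 10 genes, the called and the 2 lowest-p genes of each vascular list and the 3 nearest patterns of Angpt2, Tie1, Cdh5 and Jam3; Pecam1, Vwf, Cd34, Icam2, Eng, Pdgfrb, Cspg4, S100b and Lyve1, members of the marker lists, were named after their values were seen.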

Additional observations from a re-analysis of the deposited data

How the results depend on the processing

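Jam3 kept a negative fold change in all 17 alternatives run, as did Angpt2, Tie1, Cdh5, Mcam and Kdr. Scaling by total counts turned Tek to 0.062, and positive control scaling turned Vegfa to −0.36 and Vegfc to −0.051; Tek spanned −0.37 to 0.12 over the samples left out in turn. Of the genes studied, 2 passed with TMM (Jam3, Tie1) and DESeq2 (Jam3, Angpt2), 5 with positive control scaling, where the median moved to −1.24, and 0 with limma on scaled counts or on the deposited values (3 at an unadjusted p under 0.05 in both, Jam3 at an adjusted p of 0.0663 and 0.0650). With limma on either kind of value, 124 of all 548 genes had an unadjusted p under 0.05. Leaving out samples gave 0 to 2 called and a median of −0.78 to −0.31. Over all genes 60 passed with total counts, 244 with positive controls, 69 with DESeq2, 9 with limma on either kind of value and 0 to 36 with a sample left out; the 0 arose without the first or second 4′-BR sample, with 107 and 117 at an unadjusted p under 0.05 in edgeR. The cause was not tested. The differences in log2 ratio that lay near 0 changed sign, with Mcam over Cdh5 at 0.092 after negative probe subtraction and at −0.23 to 0.13 over samples left out, and Tie1 over Cdh5 at −0.18 to 0.20.

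With the replicate number as a block, 30 genes passed, Jam3 among them (−1.17, adjusted p = 0.0434). Same-numbered samples deviated from their group means with correlations of −0.08, 0.07 and 0.21, so the numbers were not taken as pairs. Depth limits Angpt1, whose 6 to 29 raw counts put it under the minimum for the test.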
